A study of Mus musculus with 10 samples.

Results

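Scara5, Htr4, Tox3 and Sgms2 are 4 of the 2560 named genes measured in 5 populations of sorted mouse mammary cells, and they are described here by how each was split between 2 luminal and 3 basal populations. They were chosen by their own values, because they are among the genes most shifted toward the luminal side, so the luminal excess itself is given as a description with no test. Each has 1 probe set on the Affymetrix mouse array that carries no other symbol, namely 1451204_at for Scara5, 1443365_at for Htr4, 1436600_at for Tox3 and 1428663_at for Sgms2. In the mouse assembly GRCm38.p6 the protein-coding gene Scara5 spans chr14:65666403-65764826, Htr4 spans chr18:62323546-62503027, Tox3 spans chr8:90247110-90349029 and Sgms2 spans chr3:131318985-131491443. The positions of the probes within these genes were not used here.

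All cells came from virgin FVB females of 6 to 8 weeks, with no transgene and no treatment. Glands were dissociated by enzymes, cells positive for the leukocyte, endothelial or erythroid surface proteins CD45, CD31 or Ter119 were gated away, and the remainder were sorted in 2 rounds. The methods list an antibody to CD140α, a surface protein of fibroblasts, beside those 3, while the labels do not name it. The luminal populations are CD24medCD49f-/low and CD24highCD49fmed. The basal populations are CD24medCD49fmed, Thy-1+CD24medCD49fhigh and Thy-1-CD24medCD49fhigh. In its text, the study describes a myoepithelial gate as CD24lowCD49fmed, a name no label carries, and whether the CD24medCD49fmed arrays are that gate is not stated in the sources used here. Each population had 2 arrays, so there were 4 luminal and 6 basal arrays, and nothing in the sources used here says whether the 2 came from separate animals. All p-values therefore measure the spread between these arrays, which may be technical.

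Luminal cells line the ducts of the mammary gland and give rise to the hormone-sensing and milk-secreting cells, while basal cells lie around them and contract during milk release. Scara5 is a class A scavenger receptor at the cell surface that binds ferritin and so offers a route of iron uptake apart from transferrin. Htr4 is a serotonin receptor that couples to the stimulatory G protein and raises cyclic AMP. Serotonin is made within the mammary epithelium and is known there as a local regulator of milk secretion. Tox3 is a nuclear protein with an HMG box, and the human TOX3 locus is known for its association with breast cancer risk. Sgms2 is a sphingomyelin synthase of the plasma membrane and Golgi, which moves phosphocholine onto ceramide.

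The values below are centred log2 intensities. The authors subtracted from each probe set its own mean, so a value is a distance from that mean and a difference of 1 is a doubling. Whether a gene was abundant, or above background, cannot be read from them, and levels cannot be set against each other between genes. In bulk samples such as these, fewer cells that express a gene and less RNA per cell cannot be told apart.

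The sorted identities were checked against marker genes, beside 41.3% of all features called higher and 34.7% called lower in luminal populations. All 13 basal markers were lower in luminal than in basal populations, with a median difference of -3.48. Of the 11 shared luminal markers measured, 7 were higher and none lower, with a median of 1.22, and 4 (Krt7, Krt19, Cldn4 and Cldn7) did not pass the test. Single arrays moved these differences in both directions. Krt7 rose from 1.11 to 1.70 without CD24medCD49f-/low replicate 1, and Cldn3 fell from 1.15 to 0.67 without replicate 2 of that population. None of the 10 endothelial or 10 leukocyte markers was in the table. Of 11 fibroblast markers 10 were lower in luminal populations and 1, Col6a3, was higher. The mean of that list lay between -1.39 and -0.87 in the luminal arrays and between 0.10 and 1.49 in the basal arrays. All 6 Schwann cell markers measured, the 2 adipocyte markers and the 1 erythroid marker were also called lower in luminal populations. The Schwann cell mean lay between -1.30 and -0.87 in the luminal arrays and between 0.20 and 1.16 in the basal arrays. Of the 10 arrays 7 correlated better with an array of another population than with their own partner, always on the same side. Replicate 1 of CD24medCD49f-/low correlated with its partner at r = 0.364 over all features and with replicate 1 of CD24highCD49fmed at r = 0.761. Replicate 1 of Thy-1+CD24medCD49fhigh correlated with its partner at r = 0.449 and with replicate 2 of CD24medCD49fmed at r = 0.836. Replicate 2 of Thy-1+CD24medCD49fhigh and replicate 3 of CD24medCD49fmed had the highest means of the shared luminal markers among the basal arrays, 0.57 and 0.08, against -1.56 to -0.32 in the other 4.

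Scara5 was the most cleanly split of the 4 genes. It read 2.70 and 1.96 in CD24medCD49f-/low and 2.78 and 2.33 in CD24highCD49fmed. In the basal arrays it read -1.94 and -1.53 in CD24medCD49fmed, -1.15 and -1.74 in Thy-1+CD24medCD49fhigh, and -2.22 and -1.19 in Thy-1-CD24medCD49fhigh. The sides did not overlap, and the lowest luminal array lay 3.11 above the highest basal array, the widest such gap among the 2560 named genes. Luminal populations exceeded basal ones by 4.07 ± 0.345 (SE), a 16.8-fold difference, which ranked Scara5 first of all named genes toward the luminal side. Within each side the spread was small, with a range of 0.81 over the 4 luminal arrays and 1.08 over the 6 basal arrays. The order of population means was CD24highCD49fmed, CD24medCD49f-/low, Thy-1+CD24medCD49fhigh, Thy-1-CD24medCD49fhigh and CD24medCD49fmed, and only the step from luminal to basal separated neighbours whose replicates did not overlap.

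Htr4 was also higher in all 4 luminal arrays, and it varied more among them. It read 1.08 and 2.07 in CD24medCD49f-/low and 2.05 and 3.41 in CD24highCD49fmed, a luminal range of 2.33. In the basal arrays it read -1.74 and -0.88 in CD24medCD49fmed, -1.85 and -0.53 in Thy-1+CD24medCD49fhigh, and -1.76 and -1.84 in Thy-1-CD24medCD49fhigh. The Thy-1- pair was tight, while each of the other basal pairs held 1 array near the basal floor and 1 above it. The gap between sides was 1.61, at rank 9. Luminal populations exceeded basal ones by 3.58 ± 0.385 (SE), a 12-fold difference at rank 3.

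Tox3 had the narrowest gap of the 4 genes, because 2 basal arrays sat near the mean of all arrays. In the luminal arrays it read 2.26 and 1.02 in CD24medCD49f-/low and 2.48 and 2.60 in CD24highCD49fmed. In the basal arrays it read -2.37 and -0.21 in CD24medCD49fmed, -2.32 and 0.04 in Thy-1+CD24medCD49fhigh, and -1.66 and -1.85 in Thy-1-CD24medCD49fhigh. The gap of 0.983 ranked 80 among named genes, and the basal range of 2.41 was wider than the luminal range of 1.57. Luminal populations exceeded basal ones by 3.48 ± 0.46 (SE), an 11.2-fold difference at rank 5. Without the 2 high basal arrays, Thy-1+CD24medCD49fhigh replicate 2 and CD24medCD49fmed replicate 3, the difference was 4.24. Without CD24medCD49f-/low replicate 1 and Thy-1+CD24medCD49fhigh replicate 1 it was 2.78.

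Sgms2 was the only 1 of the 4 whose Thy-1+ arrays were both above every other basal array. It read 1.87 and 1.46 in CD24medCD49f-/low and 2.88 and 1.99 in CD24highCD49fmed. In the basal arrays it read -2.16 and -1.55 in CD24medCD49fmed, -0.52 and -0.67 in Thy-1+CD24medCD49fhigh, and -1.71 and -1.59 in Thy-1-CD24medCD49fhigh. The luminal pairs did not overlap each other, which was also so for Tox3, nor did the Thy-1+ and Thy-1- pairs. Pairs of 2 arrays can separate without any difference, and the share of all features that did so was not counted. The gap between sides was 1.99, at rank 4, and luminal populations exceeded basal ones by 3.42 ± 0.331 (SE), a 10.7-fold difference at rank 6.

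**Figure D1:**
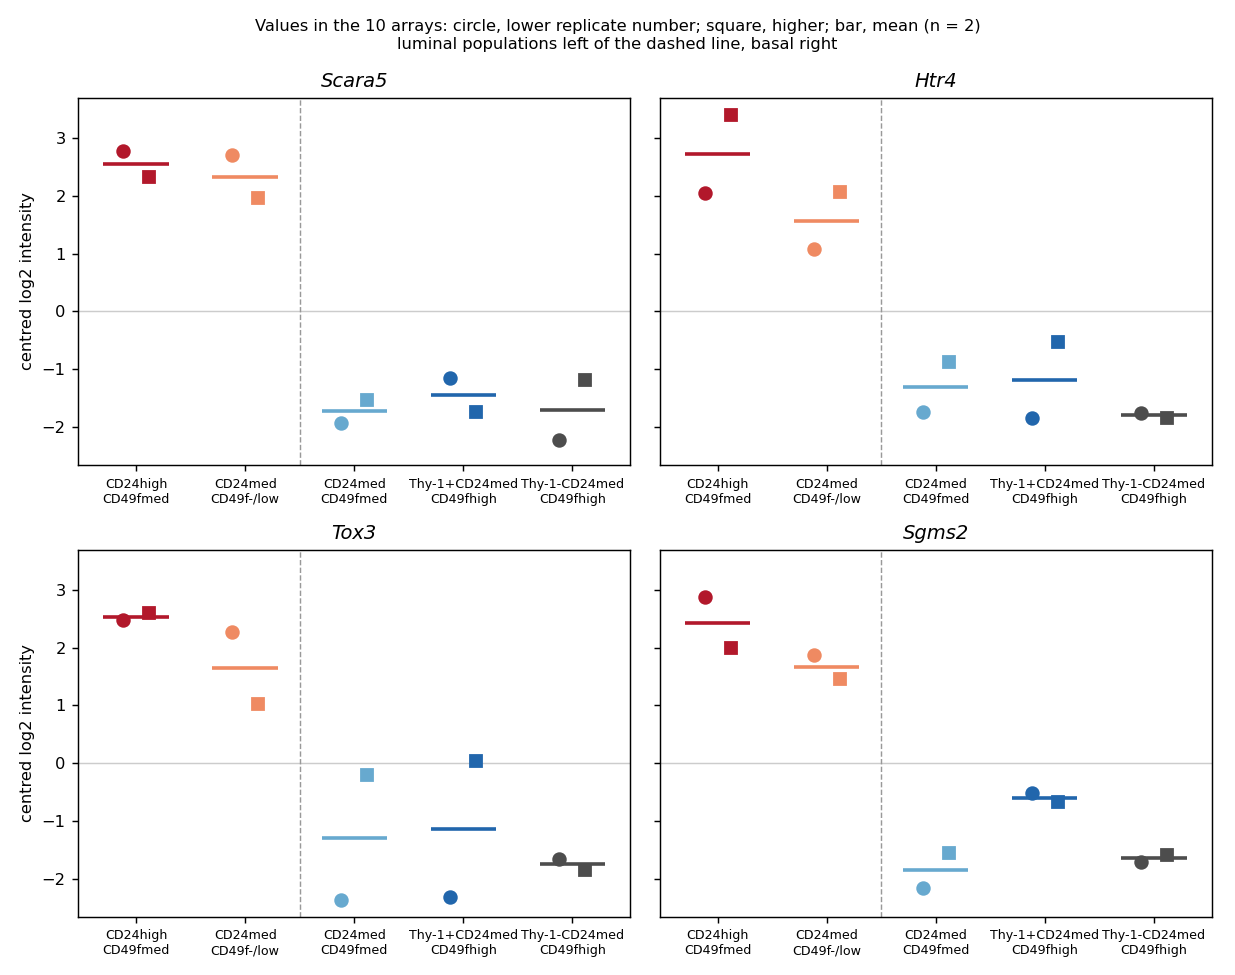
Centred log2 intensity (vertical axis) of each gene in the 5 populations (horizontal axis). Circles mark the lower and squares the higher replicate number, and bars mark the mean of the 2 arrays. All 4 luminal arrays lie above all 6 basal arrays for each gene, by 3.11 for Scara5, 1.99 for Sgms2, 1.61 for Htr4 and 0.983 for Tox3.

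Beside the 41.3% of all 2932 features that were called higher in luminal populations, 23.8% had every luminal array above every basal array. The 4 genes belong to each of the luminal-high groups because of how they were chosen, and nothing is read from that. Ranked among them were Cldn8, a claudin of tight junctions, at 3.64 and the zinc finger gene Zfp979 at 3.49. The lowest of the 4, Sgms2 at 3.42, was followed just outside by Tlcd4 at 3.40, the cation channel gene Trpc6 at 3.37 and Pwwp3b at 3.32. Leaving out any single array kept the luminal excess of Scara5 between 3.89 and 4.26, of Htr4 between 3.24 and 3.92, of Tox3 between 3.09 and 3.88 and of Sgms2 between 3.19 and 3.64.

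For Tox3 and Sgms2, start-site sequences from RefSeq (GRCm38.p6) are shown so that what lies around their starts can be compared. For Scara5 and Htr4 no such window was used here. Tox3 has 1 window of 300 bases, chr8:90348203-90348502 on the minus strand, with 85.3% GC and 52 CpG. Sgms2 has windows at 6 annotated starts, from 39.0% to 77.7% GC, and the one richest in GC is shown, chr3:131490181-131490480 on the minus strand, with 44 CpG. The median over the promoter windows used here, which leave out the chromosome of Htr4, was 52.7% GC. Capitals mark matches to an AP-1 motif and then a forkhead motif, and the Tox3 window has none.
Tox3: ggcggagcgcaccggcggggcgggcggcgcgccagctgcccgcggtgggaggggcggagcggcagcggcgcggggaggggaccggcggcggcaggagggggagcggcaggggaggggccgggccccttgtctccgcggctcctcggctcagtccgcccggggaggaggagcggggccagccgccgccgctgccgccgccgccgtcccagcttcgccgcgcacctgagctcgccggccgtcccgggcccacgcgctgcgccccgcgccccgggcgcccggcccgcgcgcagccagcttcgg
Sgms2: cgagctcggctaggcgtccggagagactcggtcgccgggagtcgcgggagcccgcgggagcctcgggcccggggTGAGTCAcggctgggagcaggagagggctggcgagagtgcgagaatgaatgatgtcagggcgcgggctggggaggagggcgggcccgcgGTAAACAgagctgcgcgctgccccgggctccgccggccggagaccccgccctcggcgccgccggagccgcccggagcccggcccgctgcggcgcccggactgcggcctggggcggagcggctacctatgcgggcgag

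The letters searched, on both strands, were TGTTTAC for forkhead factors, AGATAA for the GATA factors, AGGAAG for ETS, AGGTCA for nuclear receptors, TGANTCA for AP-1, TGTGGT for RUNX and TGACGTCA for the cyclic AMP response element. Among 32851 promoter windows of the same length, 3.65% held the forkhead letters, 7.81% AP-1, 35.4% ETS, 16.3% the nuclear receptor letters, 16.8% RUNX, 11.2% those of the GATA factors and 1.79% the cyclic AMP response element. The other 5 Sgms2 windows held ETS letters in 3, the nuclear receptor letters in 2, and AP-1 and RUNX in 1 each, and 1 held none. These matches are descriptions of letters and not of bound sites, and the arrays cannot tell which Sgms2 start was used.

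The split of the genes within the luminal side was tested as CD24highCD49fmed minus CD24medCD49f-/low. This contrast is separate from the luminal against basal difference by which the genes were chosen, although that choice used the same arrays. All 4 differences were above 0 and none was called by limma, in a comparison that called 0.205% of all features (6 of 2932). The mean of the basal markers was -1.60 and -1.35 in CD24medCD49f-/low and lower, -2.80 and -2.80, in CD24highCD49fmed. The part of basal cells or of their RNA in these differences was not tested. Htr4 differed most, by 1.15 ± 0.596 (SE), a 2.23-fold difference with a 95% interval from -0.08 to 2.39 and an adjusted p of 0.351. Across the limma alternatives its difference lay between 0.47 and 1.84 and its adjusted p between 0.133 and 0.889. Tox3 differed by 0.89 ± 0.712 (interval -0.59 to 2.37, limma adjusted p = 0.518) and Sgms2 by 0.77 ± 0.513 (interval -0.30 to 1.83, limma adjusted p = 0.445). With every array median at 0 these were 0.41 for Tox3 and 0.29 for Sgms2. Tox3 was 1.51 without CD24medCD49f-/low replicate 1 and 0.27 without replicate 2, and Sgms2 was 0.33 without CD24highCD49fmed replicate 1 and 1.21 without replicate 2. Scara5 differed by 0.22 ± 0.535, with an interval from -0.89 to 1.33 and a limma adjusted p of 0.857, and it changed sign, to -0.26 with every array median at 0 and to -0.078 after quantile normalisation. The median of all features in this comparison was 0.34 and moved to -0.14 and -0.02 under those scalings, and the differences of the 4 genes are to be read relative to it. In the main fit all 4 intervals reached past a 2-fold difference toward CD24highCD49fmed, and none reached 2-fold in the other direction. Those bounds include the shift of all features in that fit and do not carry over to the other scalings. There Scara5 was -0.26 ± 0.514 (SE) with every array median at 0 and -0.078 ± 0.555 after quantile normalisation.

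Within the basal side, Thy-1+CD24medCD49fhigh minus Thy-1-CD24medCD49fhigh called 0.0682% of all features (2 of 2932) and none of the 4 genes. Sgms2 came closest, at 1.05 ± 0.513 (SE), a 2.07-fold difference with an interval from -0.01 to 2.12, an unadjusted p of 0.0527 and a limma adjusted p of 0.999. Htr4 differed by 0.61 ± 0.596 and Tox3 by 0.62 ± 0.712, and both rested on replicate 2 of Thy-1+CD24medCD49fhigh, without which they were -0.048 and -0.56. Scara5 differed by 0.26 ± 0.535, and leaving out either replicate 1 of Thy-1+CD24medCD49fhigh or replicate 1 of Thy-1-CD24medCD49fhigh turned it below 0. CD24medCD49fmed minus the mean of the 2 CD24medCD49fhigh populations called 0.0341% of features (1 of 2932) and again none of the 4. There Sgms2 differed by -0.73 ± 0.444 (interval -1.65 to 0.19), Scara5 by -0.16 ± 0.463, Htr4 by 0.18 ± 0.516 and Tox3 by 0.16 ± 0.617, each with a limma adjusted p of 1. Without CD24medCD49fmed replicate 3 the Htr4 difference was -0.25 and the Tox3 difference was -0.93.

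**Figure D2:**
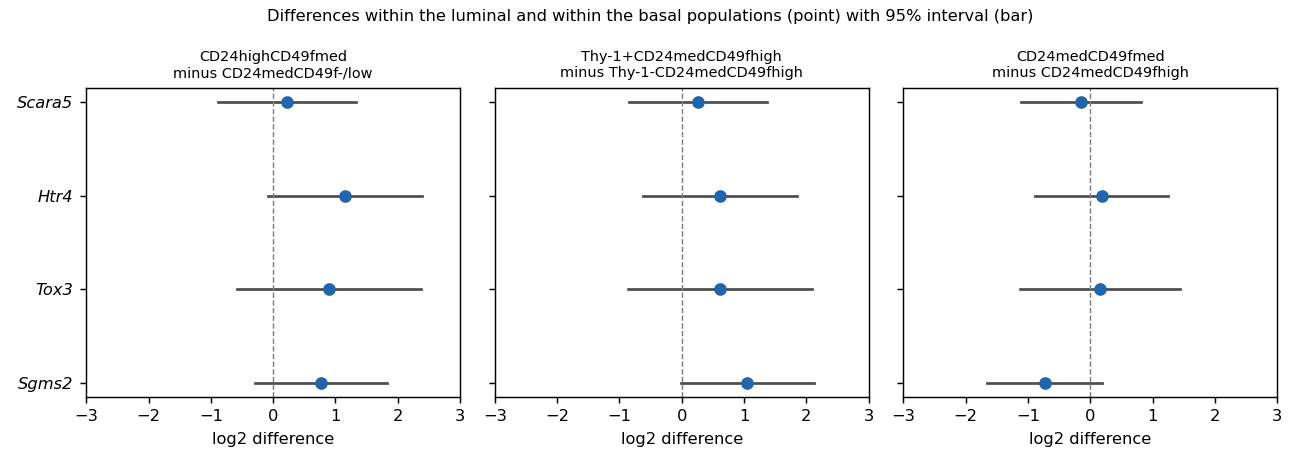
Difference on the log2 scale (horizontal axis) of each gene in the 3 comparisons within the luminal or within the basal side, as a point with its 95% interval as a bar. Every interval crosses 0, with Sgms2 between Thy-1+ and Thy-1- basal cells reaching down to -0.01 and Htr4 between the luminal populations to -0.08.

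The position of Sgms2 in the Thy-1+ arrays prompted 1 comparison that was added after its values were seen, Thy-1+CD24medCD49fhigh minus the mean of the other 2 basal populations. Sgms2 was 1.15 ± 0.444 (SE) higher there, a 2.23-fold difference, with a limma adjusted p of 1. Across the limma alternatives it lay between 1.00 and 1.38 with an adjusted p between 0.759 and 1. The comparison called 0% of all features by limma, with 64 at an unadjusted p under 0.05 and a smallest adjusted p of 0.153. Rank products, the method of the study, put 75 features past its threshold, an unadjusted one-sided p under 0.01 in either direction. That count cannot be set against the adjusted limma count. Rank products gave Sgms2 a one-sided permutation p of 0.00809. Since the values of Sgms2 prompted the comparison, these p-values are no independent support for it. The other 3 genes differed by 0.28 (Scara5), 0.37 (Htr4) and 0.38 (Tox3), and each turned below 0 when 1 Thy-1+ array was left out. The mean of the fibroblast markers was also highest in the 2 Thy-1+ arrays, 1.49 and 1.17, and its part in the Sgms2 difference was not tested. That list includes Thy1, the gene of the antigen used to sort these cells, so its mean is not independent of the sort. Whether the CD140α antibody named in the methods was used for these arrays is not stated in the labels.

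Htr4 and Tox3 shared a pattern within the basal side. Their 2 highest basal arrays were the same, Thy-1+CD24medCD49fhigh replicate 2 and CD24medCD49fmed replicate 3, and over the 6 basal arrays their values correlated at r = 0.958. Over the other 4 basal arrays r was 0.055, so the correlation rested on those 2 arrays. The same 2 arrays had the highest basal means of the hormone-sensing luminal markers, 0.30 and 0.00 against -1.64 to -0.52 in the other 4, with luminal arrays at 0.55 to 1.64. For the shared luminal markers, given above, the luminal arrays lay at 0.22 to 1.36, so Thy-1+CD24medCD49fhigh replicate 2 at 0.57 fell inside the luminal range. The luminal progenitor markers did not follow this order, with a highest basal mean of 0.12 in Thy-1-CD24medCD49fhigh replicate 2, -0.27 in Thy-1+CD24medCD49fhigh replicate 2 and -0.77 in CD24medCD49fmed replicate 3, the second lowest. The part of luminal cells or of their RNA in the Htr4 and Tox3 values was not tested. Scara5 and Sgms2 were not raised in both of these arrays. Scara5 read -1.74 and -1.53 there, inside its basal range, and Sgms2 read -0.67 and -1.55. Scara5 correlated with Htr4 at r = -0.107 and with Tox3 at r = -0.099 over the 6 basal arrays.

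The genes whose values over the 10 arrays were most like each of the 4 were taken by Pearson correlation. The points of each correlation fall into a luminal and a basal cluster, so a shared split between the sides is enough to give a high r. For Scara5 they were Dipk1a (r = 0.986), Osbpl9 (0.985), Rb1 (0.984), Cdon (0.984) and Mgat5 (0.983), of which Rb1 encodes the retinoblastoma protein that restrains cell cycle entry. For Htr4 they were Mcur1 (r = 0.984), the orphan nuclear receptor gene Esrrg (0.981), Pwwp3b (0.976), the transcription factor gene Tfcp2l1 (0.975) and the claudin gene Cldn10 (0.973). For Tox3 they were Gpsm3 (r = 0.991), Zfp979 (0.990), the lipid transporter gene Abca3 (0.986), Mboat1 (0.980) and the apical polarity gene Crb3 (0.980). For Sgms2 they were the collagen VI gene Col6a3 (r = 0.982), the angiopoietin gene Angpt1 (0.981), Arhgef6 (0.981), the arginase gene Arg1 (0.980) and Pyroxd2 (0.978). No gene stood on more than 1 of these lists, and luminal minus basal differences of the 20 genes ran from 1.41 (Osbpl9) to 3.49 (Zfp979).

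**Figure D3:**
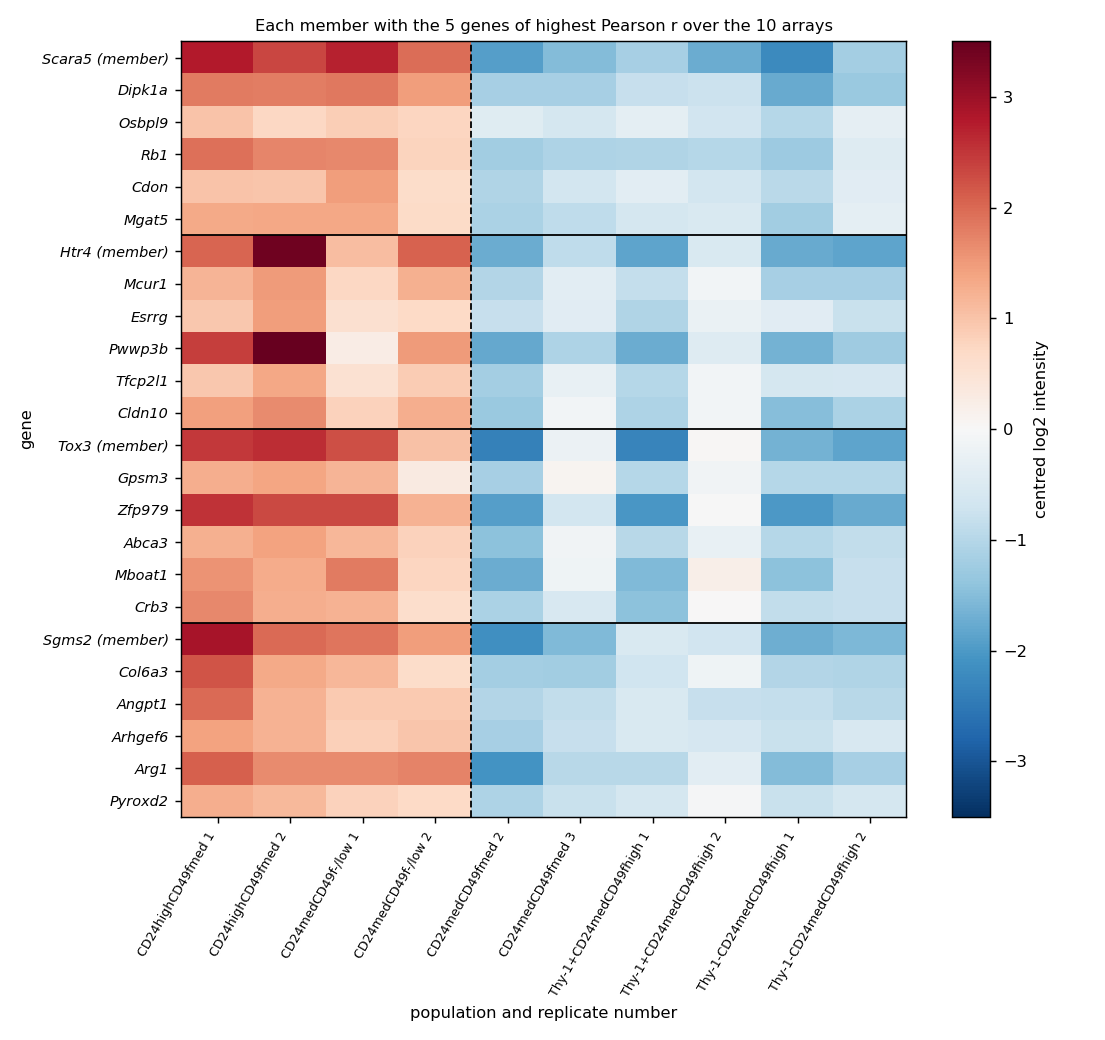
Centred log2 intensity (colour) of each of the 4 genes and its 5 most correlated genes (rows) in the 10 arrays (columns), with the dashed line between luminal and basal arrays. In the Tox3 block, the basal columns CD24medCD49fmed 3 and Thy-1+ 2 are paler than the other basal columns, as in Tox3 itself at -0.21 and 0.04.

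With the luminal and basal means removed, the likeness that remained was within sides. Tox3 was then most like Pls1 (r = 0.977), Gpsm3 (0.963) and Zfp979 (0.958), so 2 of its 5 nearest genes stayed. Htr4 was most like Tspan1 (0.931), Pwwp3b (0.915) and the interferon-induced gene Ifit1 (0.910), Sgms2 was most like Col6a3 (0.874), Tspo (0.860) and Hspa4l (0.857), and Scara5 was most like Commd9 (0.934), Man2c1 (0.908) and Zbtb43 (0.869). Col6a3, the nearest gene of Sgms2 by both measures, was 2.23 higher in luminal populations, against the other fibroblast markers.

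The other genes of each pathway were compared between luminal and basal populations, where the shares of all features given above (41.3% higher, 34.7% lower) are the background. For iron handling, the pathway of Scara5, 8 of 33 listed genes were in the table, with 5 called higher, 1 lower and a median difference of 0.92, against 0.11 over all features. Ltf, the iron-binding milk protein lactoferrin, was 2.64 ± 0.344 (SE) higher in luminal populations (limma adjusted p = 2.41e-06). Steap1, a member of the STEAP family, was 2.04 ± 0.373 higher, and Slc40a1, the iron exporter ferroportin, was 1.39 ± 0.319 higher. In each of these 3 every luminal array was above every basal array. Cp (ceruloplasmin, a ferroxidase) was 0.94 higher and Aco1 (an iron regulatory protein) 0.90 higher, and leaving out 1 array at a time left between 3 and 5 of the genes called higher, with Cp and Aco1 the ones lost. Both were also lost without the 2 basal arrays that carried the highest luminal marker means. Heph, a ferroxidase that works with ferroportin, differed by -1.33 ± 0.366 and was called lower. Fth1, the ferritin heavy chain, differed by -0.32 and Cybrd1 by -0.35, and neither passed, although Fth1 was called at -0.80 without CD24medCD49f-/low replicate 2. Of 16 other scavenger receptors only Scara3 and Cd36 were in the table, and their differences were -1.15 and -1.59, both called lower and so opposite in direction to Scara5. Scara3 lost its call without CD24highCD49fmed replicate 1, at -0.995 (limma adjusted p = 0.0627).

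For the serotonin pathway of Htr4, 3 of 22 listed genes were in the table. Tph1, the enzyme of the first step of serotonin synthesis outside the brain, was 2.58 ± 0.359 (SE) higher in luminal populations (limma adjusted p = 5.16e-06), with every luminal array above every basal array. Maob, which breaks down monoamines, differed by -1.77 ± 0.355, and S100a10, whose product binds serotonin receptors, differed by -1.60 ± 0.356, both called lower. None of the other serotonin receptors on the list was in the table. Of 32 genes of cyclic AMP signalling, through which Htr4 acts, 7 were in the table, with 1 called higher, 4 lower and a median of -1.10. The adenylyl cyclase gene Adcy7 differed by -1.94, the phosphodiesterase gene Pde4b by -1.63, Rapgef3, a cyclic AMP sensor, by -1.56, and Prkar1a, a regulatory subunit of protein kinase A, by -1.10. Without CD24medCD49f-/low replicate 1 the Prkar1a difference was -0.50 and was not called, and its call was also lost without CD24highCD49fmed replicate 1, Thy-1+CD24medCD49fhigh replicate 1 or Thy-1-CD24medCD49fhigh replicate 2. Another regulatory subunit gene, Prkar2b, was 0.93 higher (limma adjusted p = 0.0332), with a call that was lost when any of 5 single arrays was left out. Adcy6 (-0.18) and Pde7a (-0.42) did not pass, and both were called at -0.79 without CD24medCD49f-/low replicate 2.

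For Tox3, 2 of 9 listed family members and partners were in the table. Tox2, a paralogue with the same HMG box, was 1.74 ± 0.401 (SE) higher in luminal populations (limma adjusted p = 0.000865), with every luminal array above every basal array. Cited1, a transcriptional coregulator, differed by 1.18 ± 0.697 (limma adjusted p = 0.125). It was called at 2.40 (limma adjusted p = 0.0126) without Thy-1+CD24medCD49fhigh replicate 2 and CD24medCD49fmed replicate 3, the basal arrays in which Tox3 was also high, at 1.96 (limma adjusted p = 0.0121) without CD24medCD49f-/low replicate 1 and at 1.90 (limma adjusted p = 0.00288) without CD24medCD49fmed replicate 3.

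For Sgms2, 14 of 61 listed genes of sphingolipid metabolism were in the table, with 7 called higher, 5 lower and a median of 0.32. Sgms1, the other sphingomyelin synthase, was 1.63 ± 0.332 (SE) higher in luminal populations (limma adjusted p = 0.000306), with every luminal array above every basal array. Also higher were Smpdl3a, an acid sphingomyelinase-like phosphodiesterase, at 2.09, the galactosylceramide synthase gene Ugt8a at 1.63, and the serine palmitoyltransferase subunits Sptlc3 at 1.45 and Sptlc1 at 1.37, which start ceramide synthesis. Ormdl1, which restrains that enzyme, was higher at 1.33 and the ceramide transfer gene Cert1 at 0.91. Called lower were the lipid phosphatase genes Plpp1 (-2.35) and Plpp3 (-2.00), the sphingosine 1-phosphate receptor gene S1pr3 (-1.96), the lactosylceramide synthase gene B4galt6 (-1.71) and Degs1 (-1.12), the desaturase that completes ceramide. Acer1 (-0.28) and Smpd2 (-0.59) did not pass, and Smpd2 was called at -1.10 without CD24medCD49f-/low replicate 2. Cert1 lost its call without CD24highCD49fmed replicate 2 or Thy-1-CD24medCD49fhigh replicate 1. Among these 14 genes S1pr3 differed most between Thy-1+ and Thy-1- basal cells, by 2.04 ± 0.507 (limma adjusted p = 0.179), in the same direction as Sgms2 there. None of the genes on these pathway lists was called in either the luminal or the Thy-1 comparison.

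**Figure D4:**
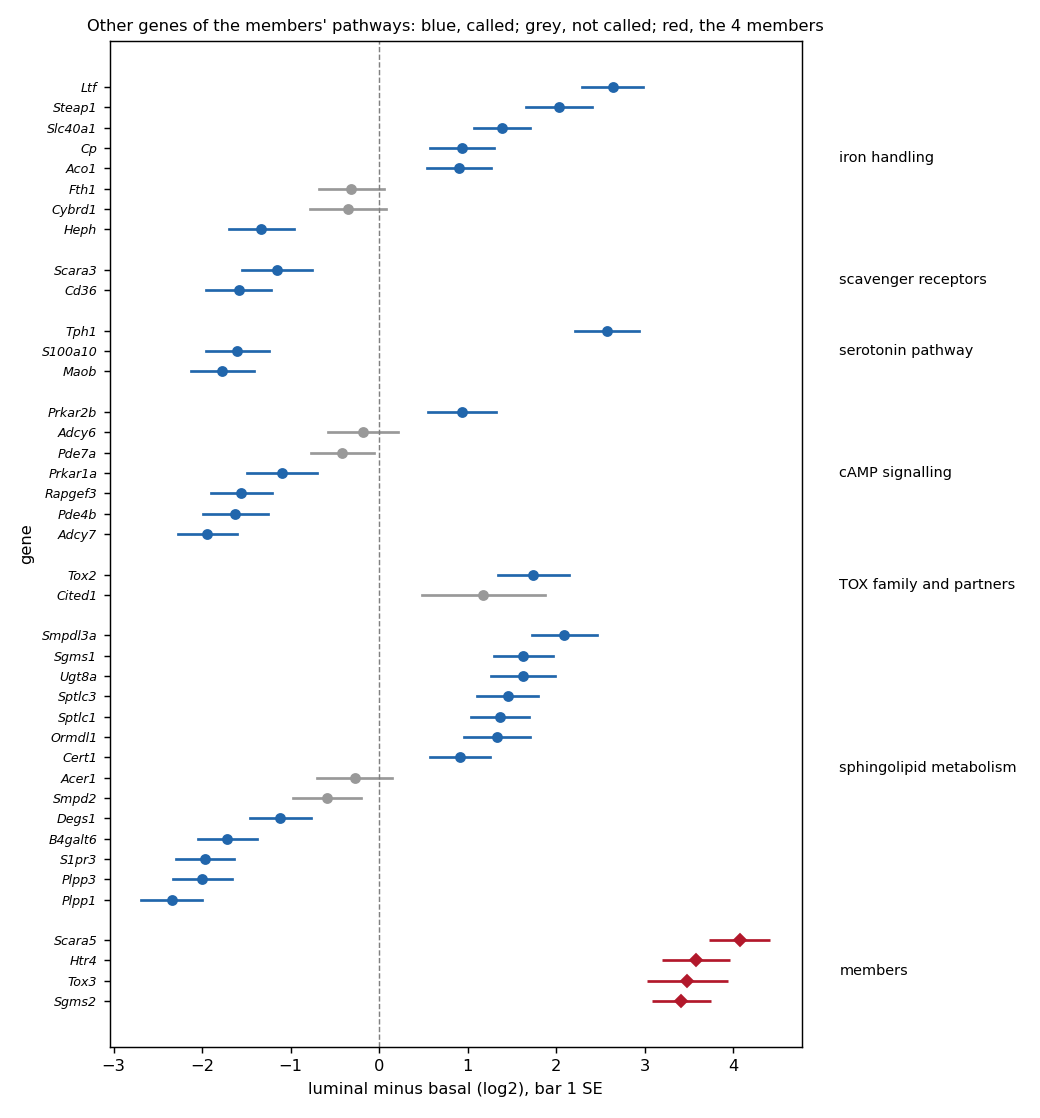
Luminal minus basal difference on the log2 scale (horizontal axis) of the other genes in the pathways of the 4 genes, with 1 SE as a bar, in blue where called, grey where not, and red for the 4 genes themselves, which carry no test. The red points lie from 3.42 to 4.07, beyond every other gene plotted, the nearest of which is Ltf at 2.64.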

How the data were processed

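Total RNA from sorted cells was labelled in 2 cycles and hybridised to Affymetrix arrays. Per the labels and the methods, the authors normalised intensities by RMA (the labels also name GCRMA, and versions are not given in the sources used here) and deposited log2 values centred to a mean of 0 per probe set. The smallest range of a probe set was 2.0, so genes that varied less are not in the table. The methods also describe a filter on low intensity, so a gene may be absent for low signal as well. The table held 3663 probe sets, of which 3291 have 1 symbol in GEO's platform annotation, 75 several and 297 none. Probe sets of a gene were averaged, giving 2932 features.

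The features were fitted with limma 3.58.1 (R 4.3.3, lmFit and eBayes, two-sided) with a mean per population over all 10 arrays, with calls made where the p adjusted by Benjamini-Hochberg over all features was under 0.05. The scripts were tested on simulated data. The 4 genes, the gene lists and the comparisons were chosen with earlier results of these data known, and support nothing on their own. Genes named besides the 4 were the 5 most correlated with each over the arrays, the 3 most correlated after removing side means, the neighbours in rank, and up to 4 per pathway list and direction, with the remaining listed genes named to account for each list. Marker lists and settings are reported in counts. The number of arrays limits the precision.

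The fit was repeated after quantile normalisation, with every array median at 0, with robust moderation and with a replicate block. It was also repeated on only the compared arrays, on single probe sets, by rank products and with each array left out. Rank products counted an unadjusted one-sided p under 0.01 in either direction. Pairs of arrays left out, and the comparison of Thy-1+ with the other basal populations, were added after seeing the data.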

Additional observations from a re-analysis of the deposited data

How the results depend on the processing

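No test of the 4 genes was called in 288 limma settings, and none passed by rank products in the 3 planned comparisons within sides. In the comparison of Thy-1+ cells with the rest of the basal side, added because of the Sgms2 values, Sgms2 passed by rank products, which restates what prompted it. The luminal excess of each gene kept its direction throughout. The cause of each change below was not tested. Counts by rank products rest on an unadjusted p in either direction, which some features pass without any difference. They cannot be set against the adjusted limma counts. Where a population was left with 1 array, that array was assumed to vary like the others.

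Features called between the luminal populations, 6 as reported, numbered 20 with medians at 0, 0 after quantile normalisation, 0 with only the arrays compared, 11 with probe sets alone, 96 by rank products, and 0 to 295 with 1 array left out, the highest without CD24medCD49f-/low replicate 1. Between Thy-1+ and Thy-1- cells, 2 became 1 with medians at 0, 1 after quantile normalisation, 13 with only the arrays compared, 1 with probe sets alone, 67 by rank products, and 0 to 11 with 1 array left out. Between CD24medCD49fmed and CD24medCD49fhigh, 1 became 0 after quantile normalisation, 64 by rank products, and 0 to 1 with 1 array left out. Between luminal and basal cells, 2227 became 441 by rank products. Without CD24medCD49f-/low 1 and Thy-1+CD24medCD49fhigh 1 the first 3 counts were 247, 6 and 3. Without Thy-1+CD24medCD49fhigh 2 and CD24medCD49fmed 3 those between the luminal populations and between CD24medCD49fmed and CD24medCD49fhigh were both 0.

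Whether replicate numbers pair the arrays is not stated in the sources used here, and the main fit did not pair them. Deviations of same-numbered arrays correlated at 0.521 between the luminal populations and at 0.3 between Thy-1+ and Thy-1- cells. Between a luminal and a basal population they correlated between -0.198 and 0.078, so pairing within sides cannot be settled from these values. Replicate number 3 belongs only to a CD24medCD49fmed array, so a replicate block fits that array exactly. CD24medCD49fmed then rests on replicate 2, and sign changes in its comparison under the block cannot be read as an effect of pairing. With a replicate block the 3 counts within sides were 33, 9 and 19, that of Thy-1+ against the other basal populations was 10, and in CD24medCD49fmed minus CD24medCD49fhigh, Htr4 turned to -0.70 and Tox3 to -1.06.

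Other turned signs were all of differences not called. Between the luminal populations Scara5 was -0.26 with medians at 0, -0.078 after quantile normalisation and -0.15 to 0.59 with 1 array left out. Between Thy-1+ and Thy-1- cells, with 1 array left out, Scara5 ran from -0.25 to 0.78, Htr4 from -0.048 to 1.27 and Tox3 from -0.56 to 1.79, and the pairs left out gave -0.032 for Scara5, -0.048 for Htr4 and -0.56 for Tox3. Between CD24medCD49fmed and CD24medCD49fhigh, Scara5 was 0.35 after quantile normalisation and -0.41 to 0.10 with 1 array left out, Htr4 -0.25 to 0.61 and Tox3 -0.93 to 1.24, and the pairs left out gave -0.15 for Htr4, and -0.43 and -0.34 for Tox3. Between Thy-1+ and the other basal cells, Scara5 was -0.17 after quantile normalisation and -0.020 to 0.57 with 1 array left out, Htr4 -0.29 to 1.03 and Tox3 -0.80 to 1.56, and the pairs left out gave -0.020 for Scara5, -0.076 for Htr4 and -0.26 for Tox3.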
